A study of Mus musculus with 6 samples.

Results

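Of the genes that mark disease-associated microglia, 31 other than Trem2 itself were followed across nuclei of the frontal lobe. They were taken from a list of 32 symbols by exact match to the gene symbols of the 6 count matrices, which hold 32285 genes. The symbol without a row, Clec7a, was not analysed here. Nuclei came from 6 Tg-SwDI mice, 1 library per mouse: 3 were SwDI/TKO, with Trem2 knocked out, and 3 were SwDI/TWT, with Trem2 wild type. Both groups carry the Tg-SwDI transgene, a human amyloid precursor protein with the Swedish, Dutch and Iowa changes that gives amyloid in brain vessels, and no transgene-free group entered the study. Age and sex are not given in the labels used here.

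Disease-associated microglia are a state described in mouse brains with amyloid, in which microglia near deposits lower homeostatic genes such as P2ry12 and raise genes for phagocytosis, lysosomes and lipid handling. Trem2 is a lipid-sensing receptor that signals through the adaptor Tyrobp, and in mouse amyloid models the later step of the state depends on it. Members of the list cover surface receptors (Axl, Itgax, Lilrb4a), secreted and lysosomal proteins (Spp1, Cst7, Lyz2), lipid enzymes and carriers (Ch25h, Plin2), the ferritin chains (Fth1, Ftl1) and intracellular proteins (Hif1a, Arhgap24). Border macrophages, which line vessels and meninges, share several of these genes in the healthy brain.

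The assay was droplet-based 3′ single-nucleus RNA sequencing, in which unique molecular identifiers (UMIs) count transcripts. After filtering, 33008 of 39752 barcodes remained, and 149 barcode sequences occurred in more than 1 library. SwDI/TKO replicate 1 stood apart: it held 51317961 UMIs, against 11493087 to 17835287 in the other 5, and its counts came from another version of the counting software, so the main genotype results are also given without it. Nuclei were clustered without the members and without Trem2, and clusters were named from markers outside both. Microglia numbered 316, 249 and 280 nuclei in SwDI/TKO replicates 1 to 3 and 182, 141 and 251 in SwDI/TWT replicates 1 to 3. Microglial markers made up 1.98% to 2.84% of their UMIs in SwDI/TKO and 2.23% to 3.15% in SwDI/TWT. Of the 10 border macrophage markers 4 were at 0 in microglia (Cd163, F13a1, Cbr2 and Clec10a), and the list summed to 0.0190% to 0.0415% in SwDI/TKO and 0.0387% to 0.0502% in SwDI/TWT. Levels are given as CPM, the UMIs of a gene scaled to 1000000 UMIs of that class in that library. Trem2, the targeted gene, measured 250, 668 and 428 CPM in microglia of SwDI/TKO, against 1700, 1384 and 816 CPM in SwDI/TWT. The groups did not overlap, and the source of the Trem2 UMIs in SwDI/TKO was not tested.

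Promoter sequences are shown for 4 members whose UMIs lay mostly in microglia (Cst7, Cd84) or in border macrophages (Lyz2, Cybb), the 2 macrophage classes on which the results turn. Each line holds 250 bases before and 50 after the RefSeq start site, 5′ to 3′ on the gene's strand, in the build GRCm38.p6. The capitals mark GAGGAA or its complement TTCCTC, the core of the site that the macrophage factor PU.1 is known to bind. The windows are chr2:150570165-150570464 (plus strand) for Cst7, chr1:171839447-171839746 (plus) for Cd84, chr10:117282223-117282522 (minus) for Lyz2 and chrX:9469275-9469574 (minus) for Cybb.
Cst7: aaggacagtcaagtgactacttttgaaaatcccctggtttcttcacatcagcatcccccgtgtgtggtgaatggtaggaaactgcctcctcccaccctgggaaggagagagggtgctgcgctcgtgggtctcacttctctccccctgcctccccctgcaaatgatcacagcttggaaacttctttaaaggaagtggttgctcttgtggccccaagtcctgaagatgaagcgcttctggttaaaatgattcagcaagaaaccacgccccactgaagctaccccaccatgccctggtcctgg
Cd84: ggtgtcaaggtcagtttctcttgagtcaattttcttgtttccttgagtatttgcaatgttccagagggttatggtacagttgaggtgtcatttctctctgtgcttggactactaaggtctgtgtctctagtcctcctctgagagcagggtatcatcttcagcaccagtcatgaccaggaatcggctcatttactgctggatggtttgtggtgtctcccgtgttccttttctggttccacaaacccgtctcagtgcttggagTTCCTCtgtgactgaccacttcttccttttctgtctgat
Lyz2: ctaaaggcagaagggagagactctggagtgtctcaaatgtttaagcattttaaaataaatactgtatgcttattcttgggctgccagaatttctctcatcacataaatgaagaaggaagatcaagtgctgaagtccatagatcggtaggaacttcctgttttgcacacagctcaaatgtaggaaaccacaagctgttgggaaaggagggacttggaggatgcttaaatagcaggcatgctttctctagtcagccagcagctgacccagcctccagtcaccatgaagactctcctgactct
Cybb: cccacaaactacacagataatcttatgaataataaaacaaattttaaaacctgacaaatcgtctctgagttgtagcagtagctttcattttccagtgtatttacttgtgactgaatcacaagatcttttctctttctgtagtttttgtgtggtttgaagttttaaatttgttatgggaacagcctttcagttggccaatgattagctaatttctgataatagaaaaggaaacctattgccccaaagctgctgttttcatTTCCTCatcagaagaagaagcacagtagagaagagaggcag
The motif occurred on the strand opposite to the gene, 11 bases after the start of Cd84 and 9 bases after that of Cybb, and these letters were not in the Cst7 or Lyz2 window. Of the members, 24 matched the RefSeq table, with 27 start sites. GAGGAA was present on either strand in 9 of those 27 windows (33.3%), against 9289 of all 32851 windows of this length (28.3%).

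Microglia held most of the transcripts of a few members and a minority of those of most others. Cd84, a SLAM-family receptor, had 80.8% of all its UMIs in microglia, Itgax, the integrin chain CD11c, 77.3%, Itgb2, its beta partner, 72.9%, Ccl6, a chemokine, 68.8%, and Cst7, the lysosomal protease inhibitor cystatin F, 62.3%. At the other end, Spp1, the secreted glycoprotein osteopontin, had 2.27% of its 573 UMIs in microglia, Cadm1, an adhesion molecule, 1.26%, and Nceh1, a cholesterol ester hydrolase, 1.23%. Compared with all other nuclei of the same mouse, 20 of 26 members tested differed in microglia (edgeR quasi-likelihood test, Benjamini-Hochberg adjusted p under 0.05), 19 higher and 1 lower. Over all genes 60.7% of 14307 passed, 21.5% higher and 39.2% lower. Of 27 members tested, 20 passed without SwDI/TKO replicate 1, again 19 higher and 1 lower, when 52.8% of all genes did (20.8% higher and 32% lower). Members took no part in the clustering, but other genes of the same nuclei did.

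The log2 fold change of microglia over other nuclei was 7.87 (SE 0.19) for Cd84, 7.22 (0.28) for Itgb2, 6.89 (0.34) for Ccl6 and 6.44 (0.39) for Cst7, with adjusted p (edgeR) of 2.18e-20 or less. Lilrb4a, an inhibitory receptor, differed by 5.01, and Cd9, a tetraspanin, by 4.62. Weaker differences came from Serpine2, a serine protease inhibitor, at 1.54, from Hif1a, the hypoxia transcription factor, at 0.99 and from the ferritin heavy chain Fth1 at 0.57. The member that was lower was Nceh1, at -0.54, a call lost by edgeR without SwDI/TWT replicate 1 (-0.41, adjusted p = 0.0780), without SwDI/TWT replicate 2 (-0.42, 0.0653) and with doublets kept (-0.20, 0.271). Fabp5, Cadm1, Ank, Apbb2, Igf1 and Spp1 did not pass, with values between -0.42 and 0.47.

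**Figure D1:**
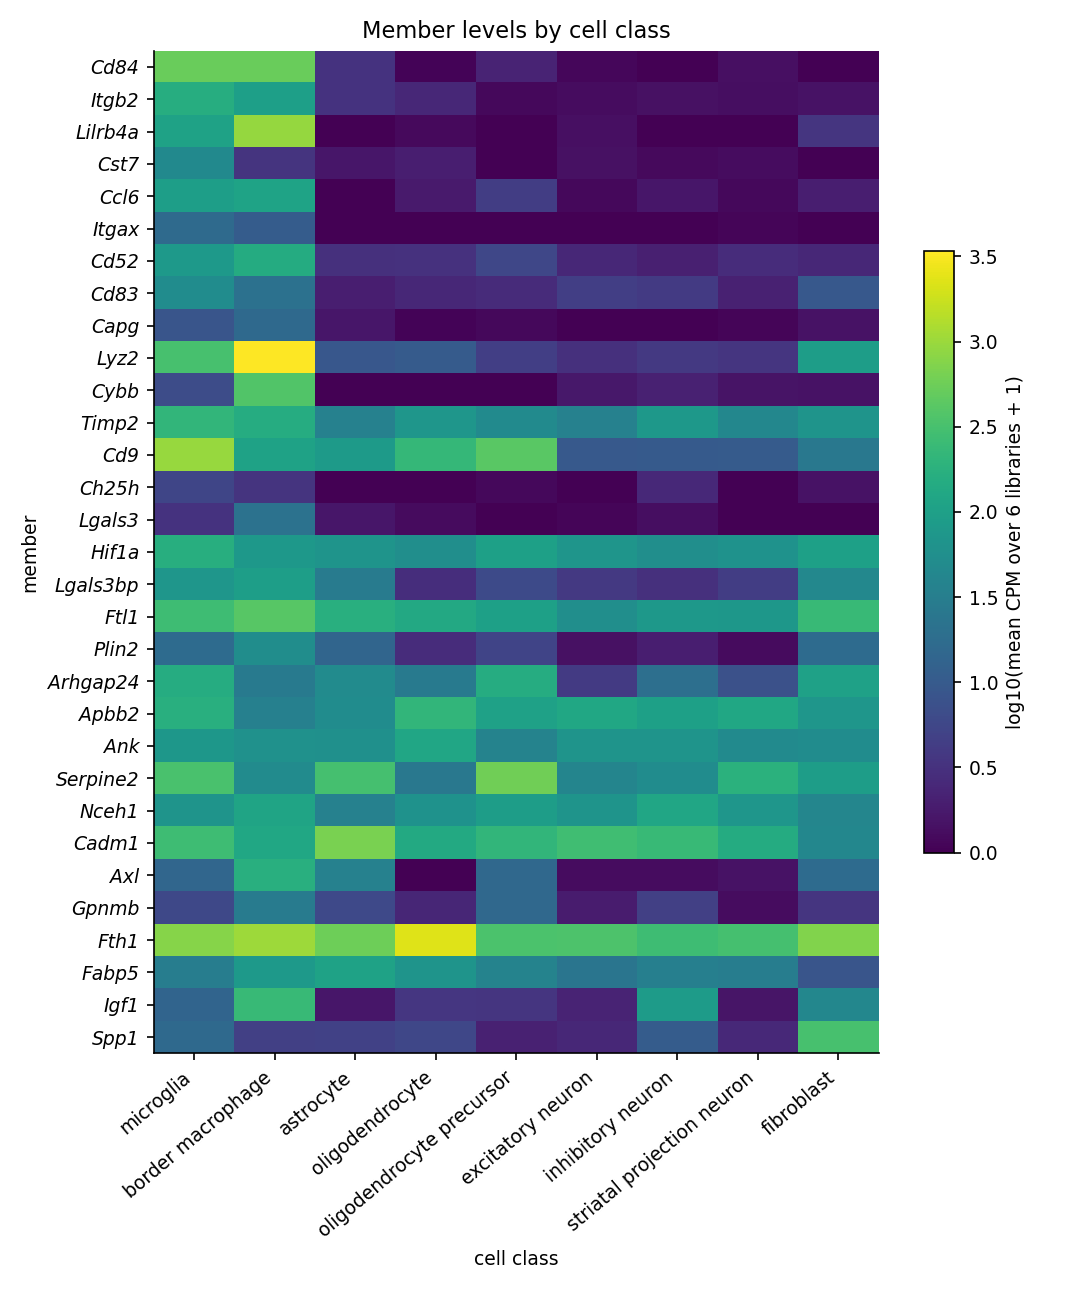
Mean level of each of the 31 members (rows) in 9 cell classes (columns), as log10 of the mean CPM over 6 libraries plus 1. Cd84 and Itgb2 are bright in the macrophage columns alone and Cst7 in the microglial column alone, while Fth1 is brightest in oligodendrocytes and Spp1 in fibroblasts.

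Ranked by mean CPM over 6 libraries, border macrophages were the highest of 9 classes for 14 members and microglia for 8 (Itgax, Itgb2, Cd83, Cd9, Timp2, Cst7, Ch25h and Hif1a). Oligodendrocytes were highest for Fth1 (2258 CPM), Apbb2 and Ank, astrocytes for Cadm1 and Fabp5, and oligodendrocyte precursors for Serpine2 (578 CPM) and Arhgap24. Spp1 was highest in fibroblasts, at 321 CPM, and Nceh1 in inhibitory neurons. Some leads were within the spread over libraries: Cd84 averaged 534 ± 288 CPM in border macrophages and 521 ± 96.5 CPM in microglia (SD, n = 6). Cst7 was not close: 46.5 ± 23.1 CPM in microglia and 2.35 ± 5.75 CPM in border macrophages, which rested on 1 UMI (SD, n = 6).

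In microglia no member passed the test between genotypes, and most of those tested were higher in SwDI/TKO. Of the 31 members 19 passed the filter on low counts, and 16 of those were higher in SwDI/TKO and 3 lower, for a median of 0.53 on the log2 scale. Over all 4044 genes tested 52.7% were higher and the median was 0.03. By edgeR 0 members and 0 genes passed, a background of 0%. Trem2, the targeted gene, was among the genes that did not pass, at -1.56 on the log2 scale. It passed in 0 of the 6 fits that left out a library. With no filter on low counts Trem2 did pass (adjusted p = 0.00566 by edgeR), where 1.35% of 17589 genes did. In the main fit 4 members, Arhgap24, Apbb2, Cadm1 and Cst7, and 248 genes (6.13%) stood at an unadjusted p under 0.05. DESeq2 also called 0 genes, with 142 at an unadjusted p under 0.05. Over the 5 libraries without SwDI/TKO replicate 1, 20 members were tested, 17 were higher with a median of 0.56, and 0 were called, against 2 of 4499 genes (0.0445%) by edgeR. There 7 members and 230 genes (5.11%) stood at an unadjusted p under 0.05.

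SwDI/TWT replicate 3 weighed on these counts: without it 13 of the tested members were higher and 7 lower, with a median of 0.33. The median was 0.25 without SwDI/TKO replicate 3. Homeostatic genes, which mark the resting state and among which are P2ry12 and Cx3cr1, made up 1.01% to 1.45% of microglial UMIs in SwDI/TKO and 1.11% to 1.51% in SwDI/TWT. Of 12 such genes tested 4 were higher and 8 lower, with a median of -0.23 (-0.08 without SwDI/TKO replicate 1), and 0 passed by edgeR, 0 of them at an unadjusted p under 0.05. All 12 were also among the markers that named microglia. Their levels were therefore not independent of how the class was defined, unlike those of the members. A list of 19 other disease-associated genes, Trem2 left out, had 15 tested, 11 higher, a median of 0.04 and 0 called. Leaving out SwDI/TKO replicate 1, all 15 of them were higher, with a median of 0.35 and 0 called by edgeR, 2 of them at an unadjusted p under 0.05. The 4 with the smallest p were Ccl3 (0.94), Ctsb (0.37), Ctsd (0.18) and Lpl (-0.35), against 1.32, 0.67, 0.47 and 0.29 without that library.

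Secreted and lysosomal members were higher in 6 of 6 tested, with a median of 0.38 on the log2 scale and 0.64 without SwDI/TKO replicate 1. Cst7 had 27, 14 and 14 UMIs in SwDI/TKO replicates 1 to 3, against 6, 3 and 2 in SwDI/TWT replicates 1 to 3. As a level this was 55.8, 70.8 and 66.6 CPM in SwDI/TKO, against 46.4, 29.0 and 10.6 CPM in SwDI/TWT. Every SwDI/TKO library lay above every SwDI/TWT library. The log2 fold change of Cst7 was 1.25 (SE 0.52; edgeR adjusted p = 0.775) and 1.29 without SwDI/TKO replicate 1 (adjusted p = 0.960), and it ranged from 0.73 to 1.81 when each library was left out. The share of microglia with a Cst7 UMI was 5.70%, 4.42% and 3.93% in SwDI/TKO and 2.75%, 2.13% and 0.797% in SwDI/TWT, at median depths of 718.5 to 1396 UMIs in SwDI/TKO and 677.5 to 681 UMIs in SwDI/TWT. Excitatory neurons, which should lack the gene, gave 0.258% to 0.315% in SwDI/TKO and 0% to 0.283% in SwDI/TWT, at median depths of 3569 to 8965 UMIs in SwDI/TKO and 2740 to 3266 UMIs in SwDI/TWT. With every microglial nucleus thinned to 500 UMIs the groups overlapped, at 1.90%, 2.81% and 2.86% in SwDI/TKO and 2.20%, 2.13% and 0.398% in SwDI/TWT.

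Serpine2 had 172, 86 and 87 microglial UMIs in SwDI/TKO, against 41, 28 and 37 in SwDI/TWT. Its level was 355, 435 and 414 CPM in SwDI/TKO (mean 401 ± 41.3), against 317, 271 and 196 CPM in SwDI/TWT (mean 261 ± 61.0, SD, n = 3 each). These groups did not overlap either. On the log2 scale SwDI/TKO was higher by 0.63 (SE 0.31; adjusted p = 0.775 by edgeR), or 0.66 with SwDI/TKO replicate 1 left out (adjusted p = 0.932). Timp2, an inhibitor of metalloproteases, had 145, 273 and 319 CPM in SwDI/TKO and 201, 213 and 106 CPM in SwDI/TWT, for a log2 fold change of 0.49 (0.77 without SwDI/TKO replicate 1). SwDI/TKO replicates 2 and 3 were above all SwDI/TWT libraries and replicate 1 was among them. Lyz2, the lysozyme of macrophages, had 169, 445 and 414 CPM in SwDI/TKO and 255, 464 and 127 CPM in SwDI/TWT, and the groups overlapped throughout (0.27, or 0.62 without SwDI/TKO replicate 1). Ccl6 measured 0.21 (0.31 without that library), and Lgals3bp, a galectin-binding secreted protein, 0.17 (0.51). All 3 of these turned negative without SwDI/TWT replicate 3.

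**Figure D2:**
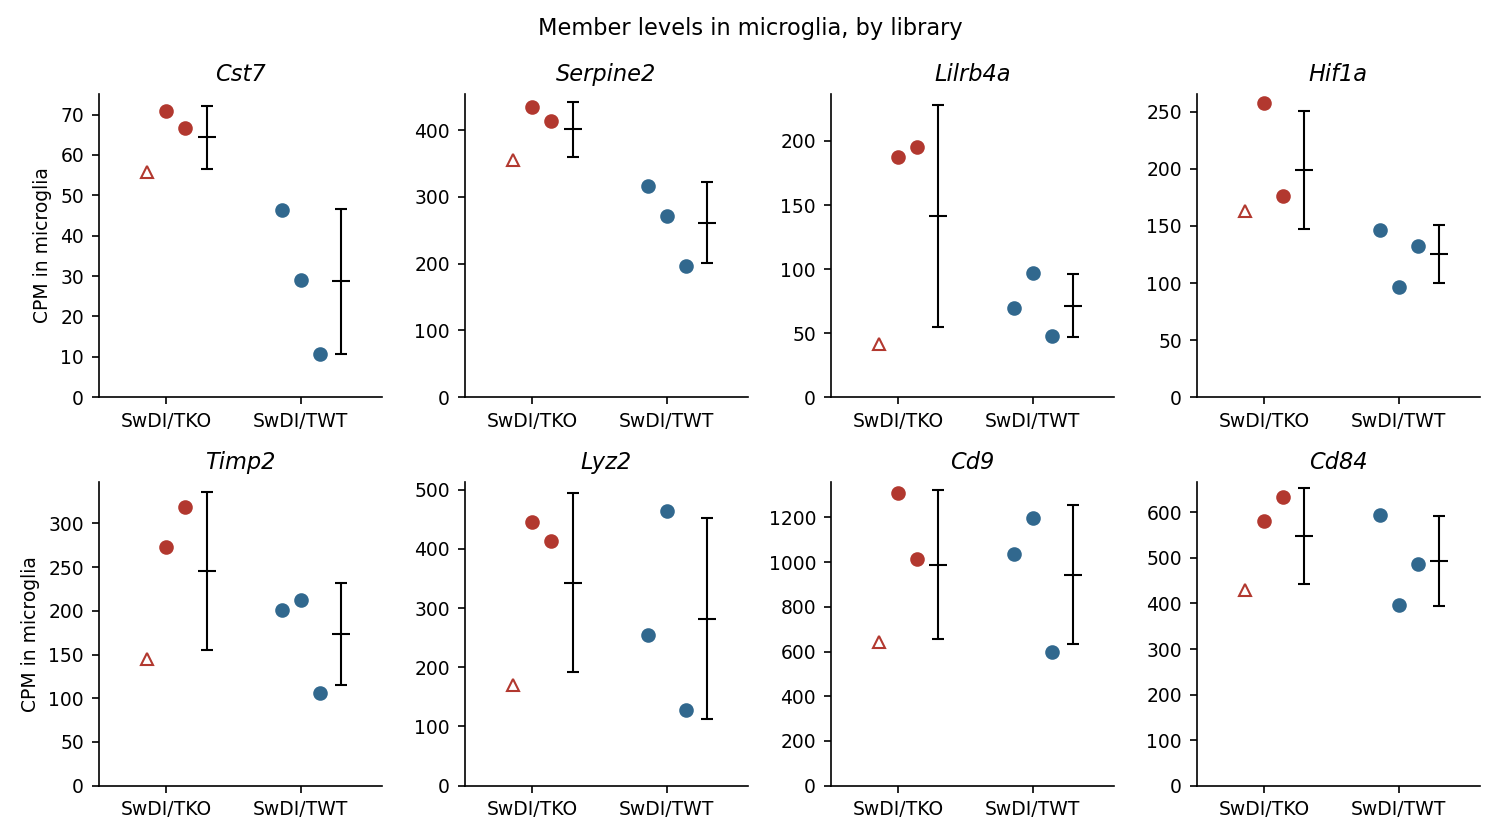
Level in microglia (CPM, linear axis from 0) of 8 members in each of the 6 libraries, SwDI/TKO in red on the left of each panel and SwDI/TWT in blue on the right, with bars for the mean ± SD (n = 3). The open triangle is SwDI/TKO replicate 1. The groups are apart for Cst7, Serpine2 and Hif1a and overlap for Lilrb4a, Timp2, Lyz2, Cd9 and Cd84.

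Surface receptors were mixed, with 4 of 6 tested higher and a median of 0.10. Lilrb4a had 20, 37 and 41 UMIs in SwDI/TKO and 9, 10 and 9 in SwDI/TWT. This gave 41.3, 187 and 195 CPM in SwDI/TKO, against 69.6, 96.8 and 47.7 CPM in SwDI/TWT. Replicate 1 was the lowest of all 6 libraries, and the other SwDI/TKO libraries were the highest. The log2 fold change of Lilrb4a was 0.94 (SE 0.54; edgeR adjusted p = 0.798), and 1.43 (SE 0.37; adjusted p = 0.289) without SwDI/TKO replicate 1. Cd84 (0.15, or 0.24 without SwDI/TKO replicate 1) and Cd9 (0.06, or 0.26) overlapped between groups, with Cd84 at 430, 582 and 633 CPM in SwDI/TKO and 595, 397 and 488 CPM in SwDI/TWT. Itgb2 (-0.30) and Cd52 (-0.70), a small surface glycoprotein, were lower over 6 libraries, and without SwDI/TKO replicate 1 measured -0.10 and -0.09. Cd83, an immunoglobulin-family surface protein, was tested only in the 5 remaining libraries, at 1.15 (edgeR adjusted p = 0.932), with 19, 10 and 24 UMIs in SwDI/TKO and 7, 2 and 6 in SwDI/TWT.

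Intracellular members gave the largest fold changes, and most of that size came from 1 library. Arhgap24, a GTPase-activating protein, had 494, 121 and 85.6 CPM in SwDI/TKO and 77.3, 67.7 and 58.3 CPM in SwDI/TWT. Its log2 fold change of 1.93 (SE 0.67; edgeR adjusted p = 0.775) became 0.56 without SwDI/TKO replicate 1. Likewise Apbb2, an adaptor that binds the amyloid precursor protein, was 1.49 with that library and 0.56 without it, and Cadm1 was 1.31 and 0.36. Ank, a pyrophosphate transport protein, was 0.92 over 6 libraries and -0.35 without SwDI/TKO replicate 1. Hif1a did not follow them: it had 163, 258 and 176 CPM in SwDI/TKO, against 147, 96.8 and 132 CPM in SwDI/TWT, with no overlap. The log2 fold change of Hif1a was 0.65 (SE 0.35; edgeR adjusted p = 0.794) and 0.71 without SwDI/TKO replicate 1.

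For the ferritin chains, Fth1 differed by less than the spread (-0.04, and 0.15 without SwDI/TKO replicate 1), at 756 ± 333 CPM in SwDI/TKO and 771 ± 240 CPM in SwDI/TWT (SD, n = 3 each). Ftl1 had 118, 379 and 485 CPM in SwDI/TKO and 294, 242 and 117 CPM in SwDI/TWT (0.56; 0.98 without SwDI/TKO replicate 1, edgeR adjusted p = 0.781). Nceh1, the lipid member with enough counts, was 0.53 (0.58 without that library). In all, the SwDI/TKO libraries lay above every SwDI/TWT library for 6 of the 19 tested members (Cadm1, Serpine2, Cst7, Arhgap24, Apbb2 and Hif1a) and below them for 0. Among all genes tested 5.56% were apart with SwDI/TKO higher and 4.67% with SwDI/TKO lower.

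**Figure D3:**
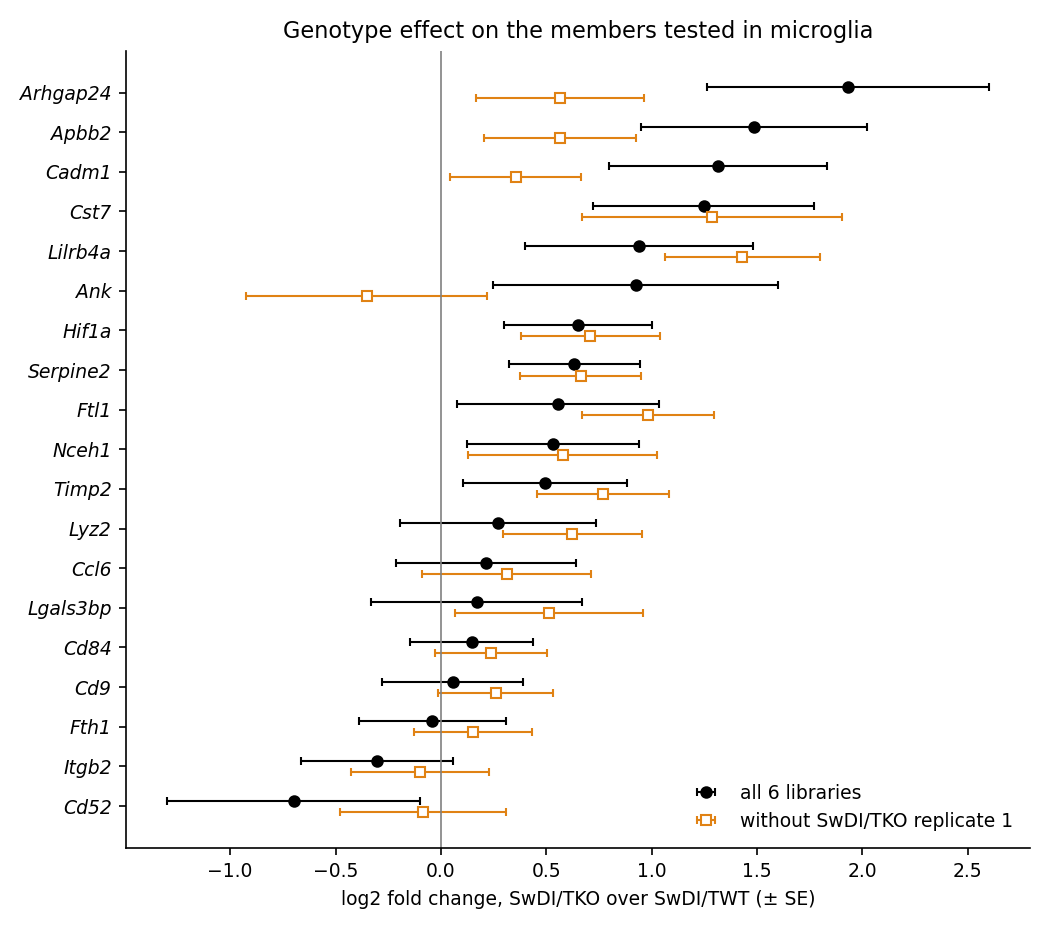
Log2 fold change of SwDI/TKO over SwDI/TWT in microglia (edgeR) for the 19 members tested, with bars for 1 SE. Black points use all 6 libraries and open orange squares leave out SwDI/TKO replicate 1, without which Arhgap24 moves to 0.56 and Ank to -0.35, while Cst7 and Serpine2 stay near 1.29 and 0.66.

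The other 12 members had too few UMIs in microglia for a test, several of them classical markers of the state. Spp1 had 1, 2 and 1 UMIs in SwDI/TKO and 5, 3 and 1 in SwDI/TWT. Itgax had 2, 3 and 5 in SwDI/TKO and 2, 2 and 3 in SwDI/TWT, and Gpnmb, a transmembrane glycoprotein, 0, 2 and 0 in SwDI/TKO and 0, 2 and 0 in SwDI/TWT. Axl, a receptor for the uptake of dying cells, had 7, 2 and 6 in SwDI/TKO and 1, 1 and 2 in SwDI/TWT, which as CPM overlapped. Igf1, a growth factor, had 15, 4 and 2 in SwDI/TKO and 0, 1 and 1 in SwDI/TWT, also overlapping as CPM. Lgals3, which encodes galectin-3, and Ch25h, a cholesterol hydroxylase, were detected only in SwDI/TKO, with 2, 1 and 1 and with 1, 4 and 1 UMIs. Lgals3 averaged 4.65 CPM in SwDI/TKO, while its 0 UMIs among 421443 in SwDI/TWT microglia allow up to 7.12 CPM, so a difference was not detectable at this depth. Ch25h had 2.07, 20.2 and 4.76 CPM in SwDI/TKO, against the same limit in SwDI/TWT, and only SwDI/TKO replicate 2 was above it. Plin2, a lipid droplet coat protein, had 9, 2 and 5 in SwDI/TKO and 3, 1 and 2 in SwDI/TWT. Fabp5, a fatty acid carrier, had 5, 4 and 17 in SwDI/TKO and 1, 4 and 4 in SwDI/TWT. Cybb, the catalytic chain of the phagocyte oxidase, had 4, 0 and 0 in SwDI/TKO and 2, 1 and 0 in SwDI/TWT, and Capg, an actin-capping protein, 0, 2 and 3 in SwDI/TKO and 2, 0 and 1 in SwDI/TWT.

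Summed, the 31 members made up 0.487%, 0.590% and 0.612% of microglial UMIs in SwDI/TKO (mean 0.563% ± 0.0666), against 0.503%, 0.491% and 0.320% in SwDI/TWT (mean 0.438% ± 0.103, SD, n = 3 each). SwDI/TKO replicate 1 lay among the SwDI/TWT libraries, and the difference between genotypes in member UMIs as a share of microglial UMIs was 0.125 percentage points (0.066 to 0.163 when each library was left out). Without Fth1, Ftl1 and Lyz2 the shares were 0.408%, 0.444% and 0.409% in SwDI/TKO and 0.345%, 0.346% and 0.240% in SwDI/TWT, with no overlap. That sum keeps Cadm1, Apbb2, Arhgap24 and Ank, which stood high in SwDI/TKO replicate 1. With only these left out of all members, the shares were 0.305%, 0.531% and 0.569% in SwDI/TKO and 0.466%, 0.451% and 0.282% in SwDI/TWT. There SwDI/TKO replicate 1 was below both SwDI/TWT replicates 1 and 2. Both sets of genes were not left out together, so the lack of overlap may rest on Cadm1, Apbb2, Arhgap24 and Ank.

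Members were also counted per nucleus at equal depth. After thinning to 500 UMIs, which left out no nucleus, a microglial nucleus had 2.23, 2.30 and 2.44 members detected in SwDI/TKO replicates 1 to 3, against 1.98, 1.99 and 1.45 in SwDI/TWT replicates 1 to 3. All SwDI/TKO libraries were above all SwDI/TWT libraries, by 0.517 members on average (0.338 without SwDI/TWT replicate 3). Not counting Cadm1, Apbb2, Arhgap24 and Ank, the values were 1.48, 2.06 and 2.24 in SwDI/TKO and 1.79, 1.82 and 1.27 in SwDI/TWT, so that SwDI/TKO replicate 1 lay among the SwDI/TWT libraries. At full depth the values were 4.73, 3.28 and 3.35 in SwDI/TKO and 2.599, 2.681 and 2.004 in SwDI/TWT. Nuclei with no member UMI at 500 UMIs were 11.4%, 10.8% and 8.21% in SwDI/TKO and 14.8%, 16.3% and 20.7% in SwDI/TWT. Nuclei with 5 or more were 17.1%, 19.3% and 21.8% in SwDI/TKO and 12.1%, 12.8% and 4.38% in SwDI/TWT. Microglia were 5.33% ± 1.05 of nuclei in SwDI/TKO and 3.46% ± 0.885 in SwDI/TWT (SD, n = 3 each; exact permutation test, two-sided, p = 0.2, where 0.1 is the smallest this design allows).

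Set against the genotype effect in all other nuclei of the same mice, that in microglia differed for 0 of 26 members and for 16 of 14307 genes (0.112%; edgeR, class by genotype term). At an unadjusted p under 0.05 stood 5 members and 5.3% of genes. Serpine2 came closest, with a difference of 1.07 (SE 0.29; adjusted p = 0.0960), followed by Lyz2 (0.81; adjusted p = 0.673) and Hif1a (0.76). Outside microglia Serpine2 had 50.6, 75.9 and 110 CPM in SwDI/TKO and 96.8, 104 and 92.5 CPM in SwDI/TWT. The other nuclei included border macrophages, which held 52.5% of all Lyz2 UMIs, against 26.9% in microglia. Without SwDI/TKO replicate 3 both Serpine2 (1.28; adjusted p = 0.0102) and Lyz2 (1.29; adjusted p = 0.0492) passed by edgeR, where 0.265% of genes did, and without SwDI/TKO replicate 1 neither did (0.97 and 0.90), with 0 of 27 members and 0.0139% of genes called.

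Border macrophages, 55, 13 and 61 nuclei in SwDI/TKO and 22, 20 and 47 in SwDI/TWT, had another set of members. Against microglia of the same mice 9 of 14 members tested differed, 5 higher and 4 lower, where 21.5% of 2179 genes did (9.82% higher and 11.7% lower). Cybb was higher by 5.91 (SE 0.42) on the log2 scale, Lyz2 by 3.45 (0.26) and Lilrb4a by 3.19 (0.26), each with an edgeR adjusted p of 3.15e-11 or less. Cd9 measured -3.44 (SE 0.31), Serpine2 -2.79 (0.35), Apbb2 -1.54 and Hif1a -0.94. Ftl1 (0.74) and Fth1 (0.53) were higher. Cd84 (0.06) and Ccl6 (0.05) did not pass, with adjusted p of 0.913 and 0.962 by edgeR. Leaving out SwDI/TKO replicate 1, 7 of 12 members passed, 4 higher and 3 lower, where 17.7% of 1703 genes did (7.69% higher and 10% lower). The calls of Hif1a and Fth1 were each kept in 1 of the 6 fits that left out a library, and that of Ftl1 in 5 of 6.

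In border macrophages defined by clustering, Lyz2 was lower in SwDI/TKO, without passing the test, and with nuclei assigned by a marker gate instead its sign turned (0.30). It had 144, 26 and 213 UMIs in SwDI/TKO, against 60, 105 and 158 in SwDI/TWT. As a level this was 1122, 1586 and 3002 CPM in SwDI/TKO, against 3493, 6439 and 4670 CPM in SwDI/TWT. The groups did not overlap, but after TMM scaling they did, at 1773, 1708 and 2858 CPM in SwDI/TKO and 2737, 5610 and 4224 CPM in SwDI/TWT. On the log2 scale the difference was -0.97 (SE 0.41; adjusted p = 0.408 by edgeR), or -0.77 with SwDI/TKO replicate 1 left out. In microglia Lyz2 measured 0.27, with -0.54 under that gate and -0.12 without SwDI/TWT replicate 3. Of 5 members tested in border macrophages Lyz2 alone was apart, with SwDI/TKO lower. So were 16.2% of the 222 genes tested in that class, and 2.25% were apart with SwDI/TKO higher. By edgeR 0 members and 0 genes passed (0%), 1 member (Lyz2) and 23 genes (10.4%) stood at an unadjusted p under 0.05, and DESeq2 called 5 genes, none of them a member. Cd84 was -0.32, Lilrb4a -0.18, Ftl1 0.39 and Fth1 0.31, and without SwDI/TKO replicate 1 Lilrb4a was 0.26 and Fth1 0.58.

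The genotype effect on Lyz2 differed between the 2 macrophage classes by -1.54 (SE 0.37; edgeR adjusted p = 0.0260) and by -1.65 without SwDI/TKO replicate 1 (adjusted p = 0.0291). It was the 1 member called of 14, beside 22 of 2179 genes (1.01%), or 13 of 1703 (0.763%) without that library. The call was lost without SwDI/TKO replicate 2 (-1.25, adjusted p = 0.0969), which has 13 border macrophages, without SwDI/TWT replicate 1 (-1.77, 0.0568) and without SwDI/TWT replicate 3 (-1.04, 0.237), by edgeR. It was also lost with doublets kept (-1.28, edgeR adjusted p = 0.963) and with no filter on low counts (-1.31, 0.272). It turned to 0.60 (adjusted p = 0.980) when nuclei were assigned by a marker gate, which moved 90 of the 218 clustered border macrophages into microglia. Lilrb4a (-1.43, edgeR adjusted p = 0.158) and Ccl6 (-2.57, 0.230) had the same sign and did not pass. Excitatory neuron markers (8 of 9 detected) were apart between genotypes in these nuclei, at 0.0756% to 0.0915% of their UMIs in SwDI/TKO and 0.0236% to 0.0524% in SwDI/TWT. Microglial markers (19 of 19 detected) overlapped, at 0.688% to 1.35% in SwDI/TKO and 1.23% to 1.999% in SwDI/TWT. Blood leukocyte markers (9 of 11 detected, Ly6c2 and Plac8 at 0) summed to 0.0125%, 0.0854% and 0.0324% in SwDI/TKO and to 0%, 0% and 0.426% in SwDI/TWT. Their part in the result was not tested.

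**Figure D4:**
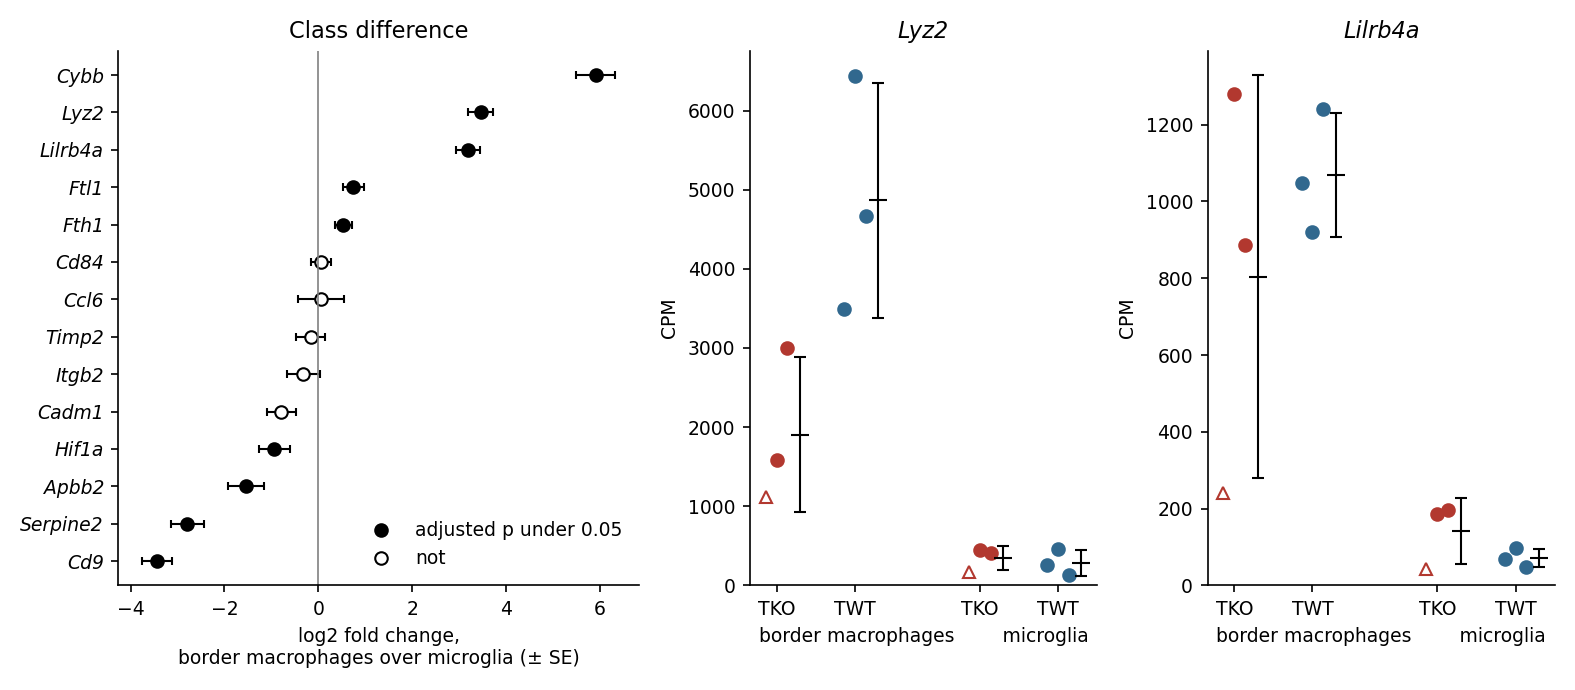
Left, log2 fold change of border macrophages over microglia (edgeR, bars 1 SE) for the 14 members tested, filled where the adjusted p was under 0.05. Middle and right, CPM of Lyz2 and Lilrb4a in each library in both classes (SwDI/TKO red, SwDI/TWT blue, open triangle SwDI/TKO replicate 1, bars mean ± SD, n = 3), where Lyz2 in border macrophages reaches 3002 CPM in SwDI/TKO and is 3493 CPM or more in SwDI/TWT.

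All 31 members together made up 0.433%, 0.671% and 0.775% of border macrophage UMIs in SwDI/TKO, against 1.02%, 1.17% and 1.05% in SwDI/TWT. The difference of means was -0.450 percentage points, with no overlap, and -0.129 under the marker gate, where the groups overlapped. These shares used class totals without TMM scaling. The TMM factors of this class were 0.633, 0.928 and 1.05 in SwDI/TKO and 1.28, 1.15 and 1.11 in SwDI/TWT. Of the 222 genes tested in this class 16.2% were apart with SwDI/TKO lower in CPM and 2.25% with SwDI/TKO higher. Without Fth1, Ftl1 and Lyz2 the shares were 0.253%, 0.342% and 0.288% in SwDI/TKO and 0.489%, 0.362% and 0.476% in SwDI/TWT. Cst7 had 0, 0 and 1 UMIs in SwDI/TKO and 0, 0 and 0 in SwDI/TWT, where 67314 UMIs allow up to 44.6 CPM.

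In the other classes no member passed by edgeR between genotypes (0% of genes in each: 4295 in astrocytes, 7565 in oligodendrocytes, 3347 in oligodendrocyte precursors, 12213 in excitatory, 10101 in inhibitory and 11717 in striatal projection neurons). DESeq2 called 0 genes in each of these too. At an unadjusted p under 0.05 stood 1 member in astrocytes (Ank), 2 in oligodendrocytes, 3 in precursors and 0 in each neuronal class. The share of genes there was 8.71% in astrocytes, 6.12% in oligodendrocytes, 6.39% in precursors, 5.04% in excitatory, 6.39% in inhibitory and 4.01% in striatal neurons. No member passed without SwDI/TKO replicate 1 either, beside 1 oligodendrocyte gene (0.0124%) and 1 precursor gene (0.0287%). The 3 smallest p in each class belonged to Cadm1, Apbb2 and Ank or Arhgap24, with Serpine2 in striatal neurons as the exception. Cadm1 was 1.42 in astrocytes, 1.02 in oligodendrocytes, 1.65 in precursors, 1.18 in excitatory neurons, 0.98 in inhibitory neurons and 1.4996 in striatal neurons. Over the other 5 libraries these became -0.16, 0.04, 0.24, 0.05, -0.18 and 0.32. Serpine2 in striatal neurons was -0.46 and -0.56 without that library (edgeR adjusted p = 0.778 and 0.992), a sign opposite to that in microglia.

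Over all nuclei together 0 of 27 members and 0 of 16425 genes passed (0%; edgeR), with 2 members and 3.77% of genes at an unadjusted p under 0.05, and DESeq2 called 0 genes with 4 members there. Spp1 was the lowest, with 3.30, 4.20 and 5.54 CPM in SwDI/TKO, against 6.63, 7.53 and 10.2 CPM in SwDI/TWT, with no overlap. Its log2 fold change was -0.90 with and without SwDI/TKO replicate 1 (edgeR adjusted p = 0.699 and 0.999). Cst7 was 1.13 (1.21 without that library) and Arhgap24 1.78 (0.16). Sums over all nuclei mix classes whose shares differed between libraries. Fibroblasts, the highest class for Spp1, were 1.80%, 0.0654% and 0.791% of nuclei in SwDI/TKO and 0.426%, 0.704% and 0.996% in SwDI/TWT. The part of these shares in the differences was not tested.

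The 4 members with the most intron bases stood high in SwDI/TKO replicate 1 in most classes, and members with few intron bases stood low. Relative to the mean of the other 5 libraries Cadm1, with 317025 intron bases, was at 3.16 to 5.30 times, Apbb2 (309116 bases) at 2.15 to 3.88 times and Ank (124623 bases) at 2.51 to 4.45 times, above all other libraries in 7 of 7 classes. Arhgap24, with 407755 bases, was above them in 4 of 6 classes, and ran from 0.400 in astrocytes to 10.4 in striatal projection neurons. Among the members with few intron bases Ftl1 (601 bases) was at 0.159 to 0.408, Lilrb4a (429 bases) at 0.225 to 0.346 and Fabp5 (493 bases) at 0.266 to 0.464 of that mean. Low values were not limited to members with few intron bases. Nceh1 (96391 bases) was at 0.368 to 1.07, Timp2 (50776) at 0.372 to 0.847 and Cd9 (32482) at 0.314 to 0.702. Igf1 (68874) ran from 0.444 to 1.87. Serpine2, with 58697 bases, was at 0.477 to 1.09 and Hif1a, with 40260, at 0.474 to 1.01. In microglia Cst7, with 7544, was at 1.25. Its genotype is shared with SwDI/TKO replicates 2 and 3, which are among the other 5 libraries. Software version and depth cannot be told apart within this library.

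**Figure D5:**
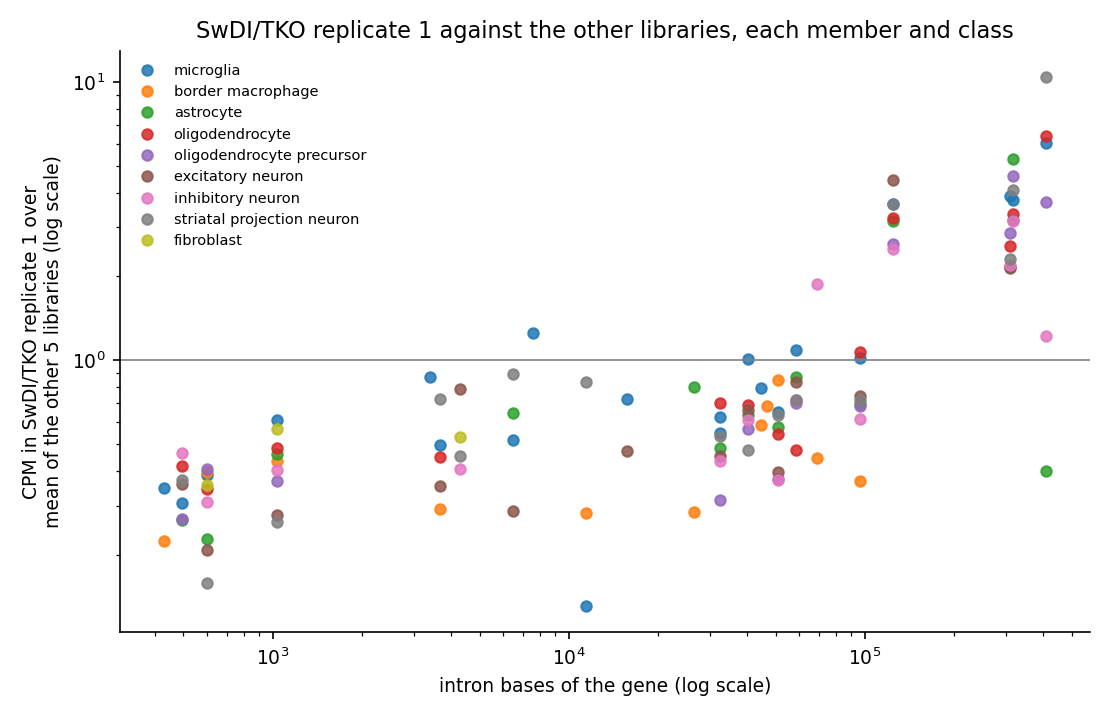
Level (CPM) of each member in SwDI/TKO replicate 1 over its mean in the other 5 libraries (log axis), against the intron bases of the gene (log axis), 1 point per member and class. The points of Cadm1, Apbb2 and Ank lie at 2.15 or more, and those of Fth1, Ftl1, Fabp5 and Lilrb4a at 0.609 or less.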

How the data were processed

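The deposited matrices hold unnormalized UMI counts of each gene in each barcode that the authors' software had selected. Per the file headers, Cell Ranger 7.0.0 made those of SwDI/TKO replicate 1 and Cell Ranger 6.1.2 those of the other 5 libraries, and the submitters' processing notes name mm10 and Seurat. Counting of introns and the annotation release were not given in the sources used here. Per the labels' protocols, nuclei were isolated by lysis and mechanical dissociation without permeabilization.

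A barcode was kept with 200 or more genes detected and a mitochondrial share of 5% or less (34281 barcodes), and 1273 doublets called by Scrublet (expected rate 6%) were removed. This limit removed 29.99% of barcodes in SwDI/TKO replicate 3 and 4.62% to 17.8% in the others. Clustering used 2000 variable genes, 30 principal components, 15 neighbours and Leiden resolution 1, without the members and Trem2, and gave 27 clusters. A cluster of at least 20 nuclei was named when 3 or more markers exceeded other nuclei by 0.8 (log2, pseudocount 20 CPM) and 1 was in its top 10 genes. These naming thresholds were chosen with the data in view, left 12323 nuclei unnamed, and may give other names than the authors' annotation. Nuclei of SwDI/TKO replicate 1 filled clusters of their own among oligodendrocytes and excitatory and striatal neurons.

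Counts were summed per library and class, and the mouse was the replicate. CPM were scaled to the class total of the library. Tests between genotypes used R 4.3.3 and edgeR 4.0.16 (glmQLFit, TMM, filterByExpr by group, two-sided, Benjamini-Hochberg over all genes tested, threshold 0.05), with DESeq2 1.42.0 as an alternative and, between classes, the mouse as a block. Class sums in microglia were 103345 to 484222 UMIs. The limit that a count of 0 allows was 3 counts and covers counting error only. Python 3.11.15 was used with scanpy 1.11.5, scikit-learn 1.9.0, leidenalg 0.10.2, scipy 1.17.1, numpy 2.4.6, matplotlib 3.10.9 and pandas 2.3.3, and the tests were tried on simulated data.

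The members and lists were chosen with earlier results of these data known. The text names all members, up to 3 with the smallest p in each other class, up to 4 other disease-associated genes and Trem2. Comparisons of border macrophages, of which 1 library has 13 against a planned minimum of 20, were added after seeing the data, as were the sums and counts over part of the members. Gene positions and intron bases came from GENCODE M21. Lyz1, the near-identical copy of Lyz2, had 0 UMIs in both macrophage classes, and the copy Ftl1-ps1 had 4 in microglia. Lilrb4a, Cd52, Cd9, Igf1, Ccl6, Ch25h, Arhgap24, Ank and Hif1a overlap a gene on the other strand, and Timp2 one on its own, and how such reads were counted is not given.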

Additional observations from a re-analysis of the deposited data

Results flagged for a closer look

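The effect of genotype on Lyz2 was not alike in the macrophage classes, which is why it is listed here. It was -0.97 on the log2 scale in border macrophages and 0.27 in microglia, and the class by genotype term was -1.54 (edgeR adjusted p = 0.0260). In border macrophages 3 of 3 SwDI/TKO libraries had a lower CPM than every SwDI/TWT library, and in microglia the groups overlapped. The same separation held for 16.2% of the 222 genes tested in border macrophages, and the opposite one for 2.25%. After TMM scaling the Lyz2 levels of border macrophages overlapped between genotypes. The comparison was added after seeing the data, and its sign depended on how border macrophages were defined.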

How the results depend on the processing

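Of the log2 fold changes of single genes between genotypes in microglia, 243 of 263 under alternative settings kept their sign and stayed uncalled. Another 16 turned in sign and 4 became called. As 0 genes were called in the main fit, this count does not measure how far values moved. Arhgap24, for example, kept its sign and went from 1.93 to 0.56 without SwDI/TKO replicate 1. No paired analysis was possible because replicate numbers were given in accession order and pair no mice. With no filter on low counts edgeR called 3 members in microglia (Arhgap24, Apbb2 and Cadm1), 1 in oligodendrocytes (Arhgap24), 2 in precursors (Arhgap24 and Cadm1) and 0 for the genotype effect between macrophage classes. The share of all genes called was then 1.35% in microglia (237 of 17589), 2.51% in oligodendrocytes, 2.40% in precursors and 0.141% for that effect. Leaving out each library in turn, the median of the members in microglia ranged from 0.25 to 0.68. The genotype effect called 0 to 2 members between microglia and other nuclei and 0 to 1 between macrophage classes in those fits. Under the marker gate 5 of 9 members differed between border macrophages and microglia (18.1% of genes), 0 had a genotype effect that differed between them, and the share difference was -0.129 points. Keeping doublets also gave 0 for that effect.

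The following log2 fold changes turned in sign when 1 library was left out, and are given as the range over those fits. In microglia by genotype these were Ank (-0.35 to 1.34), Lyz2 (-0.12 to 0.81), Ccl6 (-0.15 to 0.69), Lgals3bp (-0.28 to 0.54), Cd9 (-0.21 to 0.26), Fth1 (-0.42 to 0.20), Ctsd (-0.10 to 0.47) and Lpl (-0.85 to 0.29). Ank and Lpl turned without SwDI/TKO replicate 1, Lyz2, Ccl6, Lgals3bp, Cd9 and Ctsd without SwDI/TWT replicate 3, and Lgals3bp, Cd9 and Ctsd also without SwDI/TKO replicate 2. Fth1 turned without SwDI/TKO replicate 1, SwDI/TKO replicate 2 or SwDI/TWT replicate 1. Only the loss of SwDI/TKO replicate 1 turned Cadm1 in astrocytes (-0.16 to 1.85) and inhibitory neurons (-0.18 to 1.32) and Apbb2 in excitatory (-0.068 to 1.03) and inhibitory neurons (-0.18 to 0.95). Between microglia and other nuclei Spp1 ran from -0.0049 to 0.88. Between border macrophages and microglia Timp2 ran from -0.48 to 0.057, Cd84 from -0.14 to 0.15 and Ccl6 from -0.56 to 0.53, and by genotype in border macrophages Lilrb4a ran from -0.68 to 0.26.

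With no filter Fth1 was 0.018 in microglia by genotype, and between macrophage classes Fth1 was -0.072, Cd84 -0.53 and Ccl6 -0.48. With doublets kept Cadm1 was 0.0055 and Apbb2 0.10 between microglia and other nuclei. Under the marker gate Lyz2 was -0.54 and Ccl6 -0.087 in microglia by genotype, Igf1 was 0.40 between microglia and other nuclei, and the genotype effect on Lyz2 between them was -0.47. That gate also gave Timp2 0.063 and Cd84 -0.44 between macrophage classes, and Lyz2 0.30 by genotype in border macrophages and 0.60 for the difference from microglia. The gate placed 90 of the 218 clustered border macrophages in microglia and kept 89 as border macrophages, so both classes changed. The cause of the reversals, under the gate or under other settings, was not tested. The depth of microglia left 12 of 31 members untested, and the SE of the log2 fold change of a tested member was between 0.29 (Cd84) and 0.68 (Ank).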
